A study of Capra hircus with 6 samples.

Results

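The genes described here encode keratins that mark the cell layers of mammary epithelium: the simple keratins *KRT7*, *KRT8*, *KRT18* and *KRT19* of luminal cells, and the basal keratins *KRT5*, *KRT14*, *KRT15* and *KRT17*. The regions assigned to them came from a deposited table of chromatin accessibility differences and were those with their centre inside one of these genes or within 50000 bp of its end, whatever their p-value. A RefSeq table of goat genes gave a position for 6 of the 8 genes: all 4 simple keratins, *KRT5* and *KRT14*. No row carries the symbols *KRT15* and *KRT17*, so regions at these genes were not analysed here. Unnamed protein-coding genes lie beside *KRT19* and *KRT14* in the gene table, and whether any of them is *KRT15* or *KRT17* was not determined, so the split between simple and basal keratins could differ with those 2 genes placed. Of 30714 listed regions, 31 met the rule, with 28 in reach of a simple keratin, 5 in reach of a basal keratin and 2 in reach of both.

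Keratins build the intermediate filaments of epithelial cells, and each filament pairs a type I with a type II keratin. *KRT8* and *KRT7* (type II) with *KRT18* and *KRT19* (type I) form the filaments of simple epithelia, which in the mammary gland means the luminal, milk-making layer. *KRT5* (type II) pairs with *KRT14* (type I) in the basal, myoepithelial layer, and *KRT15* and *KRT17* are further type I keratins of basal cells. Most type I genes lie in one cluster and most type II genes in another. *KRT18* is the exception, since it is a type I gene at the edge of the type II cluster beside *KRT8*.

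ATAC-seq, an assay that uses a transposase to tag DNA not wrapped in nucleosomes, was run on mammary epithelial cells of goats (*Capra hircus*), with 50000 cells in each library. There were 3 libraries from the lactation period and 3 from the dry period, when no milk is made. The series' title names sites for placing transgenes in accessible chromatin of the lactating gland as its subject. The labels give no age or breed and do not say whether libraries came from separate goats, so the authors' p-values may measure technical spread only.

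The measurement is the authors' comparison of the 2 periods, with a fold change, a p-value and a false discovery rate (FDR) for each region and no value per library. Read depth per library is therefore unknown, and spread between libraries cannot be shown. Region names carry 1 of 2 prefixes; the 22884 regions with the first are called set 1 here, and the 7830 with the second set 2. Every fold change is above 1 in both sets, and each set was read as holding regions with more signal in a single period. Which period belongs to which set is stated neither in the table nor in the labels, so the text below names the set, not the period. A table of differences does not show how open a keratin gene was in either period, nor whether its mRNA changed. It therefore cannot check the labelled cell type against its markers. In a bulk library, a change in the mix of luminal and basal cells and a change within cells cannot be told apart.

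Keratin regions were mostly in set 1. Of the 31 regions, 29 were in set 1 and 2 in set 2 (6.45%), where 25.5% of all listed regions are in set 2. In the authors' deposited table, 14 of the 31 (45.2%) had an FDR under 0.05, against 27.8% of all listed regions. All 14 were in set 1. Among all regions under that FDR, 8.46% are in set 2. The same FDR stood for a lower p in set 2 than in set 1. In the authors' deposited table, a set 1 region with p = 4.26e-06 had an FDR of 0.00821, and a set 2 region with p = 4.33e-06 had 0.0421. Comparisons of passing regions between the sets, here and below, therefore rest on unlike p cut-offs. The 2 set 2 regions, near *KRT8* and between *KRT19* and *KRT14*, had an FDR of 0.622 and 0.736 per the authors' deposited table, and 9.23% of all set 2 regions passed. A set 2 region lay in the window of 2 of the 4 simple and 1 of the 2 placed basal keratins, and in that of 37.6% of protein-coding genes. Of the 14 regions that passed, 12 were in reach of simple keratins and 2 of basal keratins. These counts describe a few stretches of chromosomes 5 and 19, where neighbouring regions share their surroundings, and no test across regions was made.

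*KRT8* and *KRT18*, the main filament pair of simple epithelia, are 36.8 kb apart on chromosome 5. They share 4 regions. Between the genes lies a region at 26758601 to 26759100, 9318 bp from *KRT8* and 27441 bp from *KRT18*, with a fold of 4.48 per the authors' deposited table (p = 4.27e-08, FDR = 0.000294). It lies 428 bp from an unnamed long noncoding RNA gene. A second region between them, at 26764901 to 26765400 and 3018 bp from *KRT8*, had a fold of 2.08 per the authors' deposited table (FDR = 0.0179). On the other side of *KRT8*, at 26779601 to 26780500 and 4404 bp from the gene, a 900 bp region had 4.14 per the authors' deposited table (FDR = 0.00133). All 3 were in set 1 and had *KRT8* as their nearest protein-coding gene.

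No listed region lay inside *KRT8* or *KRT18*. *KRT8* had 8 regions in its window, 7 in set 1 and 1 in set 2, and 5 of them within 10000 bp of the gene. The highest fold change of any keratin region, 9.84 per the authors' deposited table, belonged to a 200 bp set 1 region 6654 bp from *KRT8*, but its FDR was 0.199. At 15454 bp, the set 2 region of *KRT8* had the lowest fold change at any keratin, 1.31 per the authors' deposited table. *KRT18* had 6 regions, all in set 1, of which 5 passed the FDR of 0.05, and none within 10000 bp. On its side away from *KRT8*, a region at 26685301 to 26685800 had the lowest p near this pair (fold of 1.88 per the authors' deposited table, p = 2.05e-11, FDR = 7.42e-07). It lies 42110 bp from *KRT18* and only 5412 bp from *EIF4B*, a translation initiation factor gene. The next, 28410 bp from *KRT18*, had 3.38 per the authors' deposited table (FDR = 0.00394) and also has *EIF4B* as its nearest gene. Proximity alone thus ties 3 of the 5 passing *KRT18* regions to *KRT8* and the other 2 to *EIF4B*.

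*KRT7*, the type II keratin of ducts and glands, had most regions of any member. Its window on chromosome 5 held 12, all in set 1, where the median protein-coding gene had 3 (interquartile range 1 to 6) and 5.96% of 19063 genes had as many or more. *KRT7* is also the longest of the 6 placed genes, at 13606 bp against 3750 to 7479 bp for the others. Within the gene lay 5 of its 12 regions, against 1 inside *KRT5* and 0 inside the other 4 genes. Of these 5, those at 27381801 to 27382200 and 27386401 to 27386700 passed the FDR of 0.05, with fold changes of 1.98 (FDR = 0.00723) and 3.99 (FDR = 0.0361) in the authors' deposited table. For the other 3 inside the gene the authors' deposited table gave 4.59, 3.88 and 3.21, with an FDR of 0.241, 0.151 and 0.0964. The larger folds inside the gene thus included regions that did not pass.

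Beside *KRT7*, 2 further regions passed, both on its lower-coordinate side. The region at 27361901 to 27362800, 11618 bp from the gene, had the lowest p of all keratin regions and was 130th of the 22884 set 1 regions by p (fold of 2.89 per the authors' deposited table, p = 1.47e-12, FDR = 8.13e-08). The region at 27370901 to 27371600, 2718 bp from the gene, had a fold of 2.19 per the authors' deposited table (p = 1.09e-08, FDR = 0.000104). Both have their centre within an unnamed pseudogene annotated beside *KRT7*, and the first is nearer to an unnamed protein-coding gene (5524 bp). The 5 other *KRT7* regions lay 14418 to 44427 bp from the gene, with an FDR of 0.0908 to 0.225; the farthest lies inside *KRT80*, a neighbouring type II keratin gene.

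**Figure D1:**
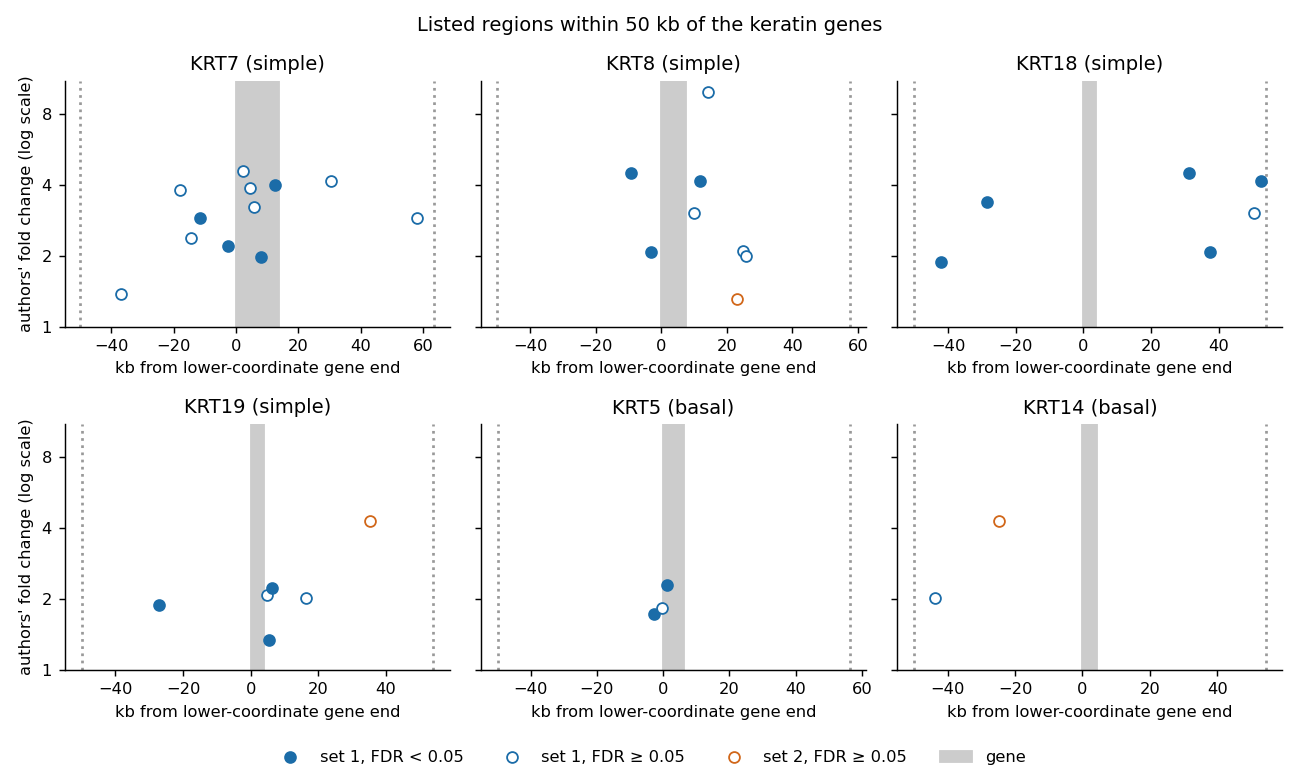
Each panel plots the listed regions of 1 keratin gene by distance from its lower-coordinate end (kb) and the authors' fold change (log scale). Grey marks the gene, dotted lines the limits of the window, filled points an FDR under 0.05, blue set 1 and orange set 2. Regions sit inside *KRT7* and *KRT5*, while *KRT18* and *KRT14* have none within 10000 bp.

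*KRT19*, a type I keratin of luminal and duct cells, had 3 regions in a row just beyond its higher-coordinate end on chromosome 19. The outermost, at 41384401 to 41385200 and 2256 bp from the gene, was 290th of the set 1 regions by p (fold of 2.23 per the authors' deposited table, p = 1.67e-10, FDR = 3.95e-06). The middle one, at 1556 bp, had a small fold of 1.34 per the authors' deposited table (FDR = 0.0334), the lowest of any set 1 keratin region. The innermost, at 806 bp, had 2.08 per the authors' deposited table but did not pass (FDR = 0.104). On the other side, a 1100 bp region at 41351001 to 41352100, the widest of all keratin regions, had 1.88 per the authors' deposited table (FDR = 0.00622). It lies 27115 bp from *KRT19*, beyond an unnamed protein-coding gene that is 4060 bp from it, and was counted for the simple keratins alone. In all, 5 of the 6 *KRT19* regions were in set 1, and 3 passed.

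*KRT5*, the type II keratin of basal cells, had few regions, but they were the closest to their gene. All 3 lay inside *KRT5* or within 3000 bp of its end, and all were in set 1. The region inside the gene, at 27097101 to 27097600 on chromosome 5, lies 1094 bp from an end and had a fold of 2.28 per the authors' deposited table (p = 7.64e-08, FDR = 0.000458). Outside, at 27093401 to 27093700 and 2706 bp from the gene, a region had 1.73 per the authors' deposited table (FDR = 0.00821). Between them, 356 bp from the gene, the third had 1.83 per the authors' deposited table and did not pass (FDR = 0.165). Nothing else was listed in the rest of the *KRT5* window, and 52.4% of genes had as many or more listed regions.

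*KRT14*, the partner of *KRT5*, had no region of its own. Its window held 2 regions, neither of which passed, and both were shared with *KRT19*. The set 1 region at 41394801 to 41395100 is 43840 bp from *KRT14* and 12406 bp from *KRT19*, with a fold of 2.01 per the authors' deposited table (FDR = 0.0973). The set 2 region at 41413801 to 41414000 is 24890 bp from *KRT14* and 31356 bp from *KRT19*, with 4.26 per the authors' deposited table (FDR = 0.736). *KRT9*, a keratin gene of palm and sole skin in humans, lies between both regions and *KRT14*. The partners *KRT5* and *KRT14*, which are made together in basal cells, had 2 and 0 passing regions within 50000 bp. Within 100000 bp each had 3 passing regions, of which 1 at *KRT5* was in set 2. Those of *KRT14* were the 3 passing regions already counted at *KRT19*.

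Within 50000 bp, each simple keratin had more listed regions around it than either basal keratin. *KRT7* had 12, *KRT8* 8, and *KRT18* and *KRT19* 6 each, against 3 at *KRT5* and 2 at *KRT14*. Per 100000 bp of merged window this came to 7.66 listed and 3.28 passing regions at simple keratins, and 2.37 listed and 0.95 passing regions at basal keratins. Without *KRT7*, the simple keratins had 16 listed and 8 passing regions; without *KRT5*, the basal keratins had 2 listed and 0 passing regions. This order of the genes did not hold in other windows. Within 100000 bp *KRT5* and *KRT14* had 8 listed regions each, against 6 at *KRT19*. All 6 of the *KRT19* regions are among the 8 of *KRT14* in that window. Within 10000 bp *KRT18* had 0 and *KRT19* 3, against 3 at *KRT5* and 0 at *KRT14*. With only 2 basal genes placed, whether the groups differ beyond the spread among genes was not tested.

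**Figure D2:**
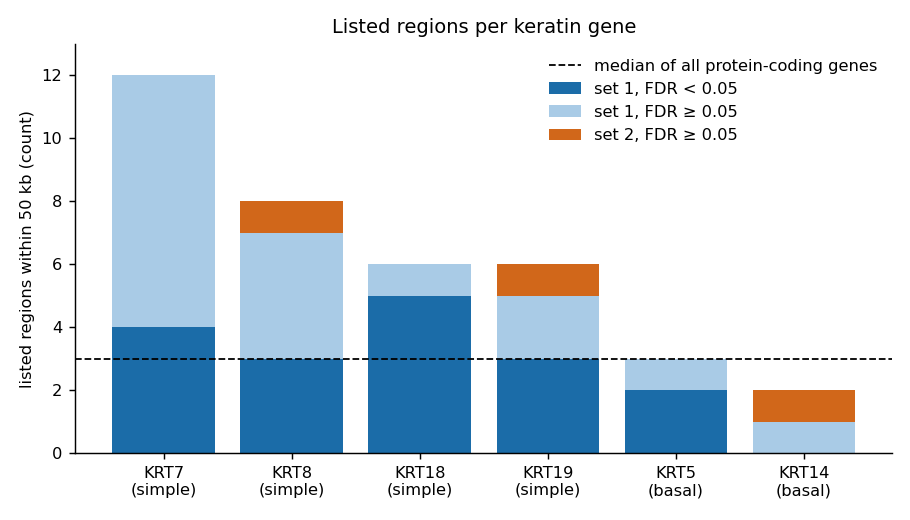
Bars give the number of listed regions within 50000 bp of each keratin gene, split by set and by the authors' FDR, and the dashed line the median of all protein-coding genes (3). The 4 simple keratins have 6 to 12 regions, *KRT5* 3 and *KRT14* 2; regions shared by neighbouring genes are counted at each.

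Of the 28 regions of simple keratins, 12 passed the FDR of 0.05 (42.9%), as did 2 of the 5 of basal keratins (40%), against 27.8% of all listed regions. Within set 1 these were 12 of 26 and 2 of 4, against 34.2% of all listed set 1 regions. The median set 1 fold change by the authors' deposited table was 2.63 at simple keratins (26 regions, 1.34 to 9.84) and 1.92 at basal keratins (4 regions, 1.73 to 2.28), against 2.39 over all set 1 regions. All 4 basal values lay within the range of the simple ones. Among regions that passed, the medians by the authors' deposited table were closer, at 2.21 for simple and 2.01 for basal keratins, against 2.32 over all passing set 1 regions. Without *KRT7* the median of the simple keratins was 2.09 by the authors' deposited table, below that of the whole set 1 rather than above it.

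**Figure D3:**
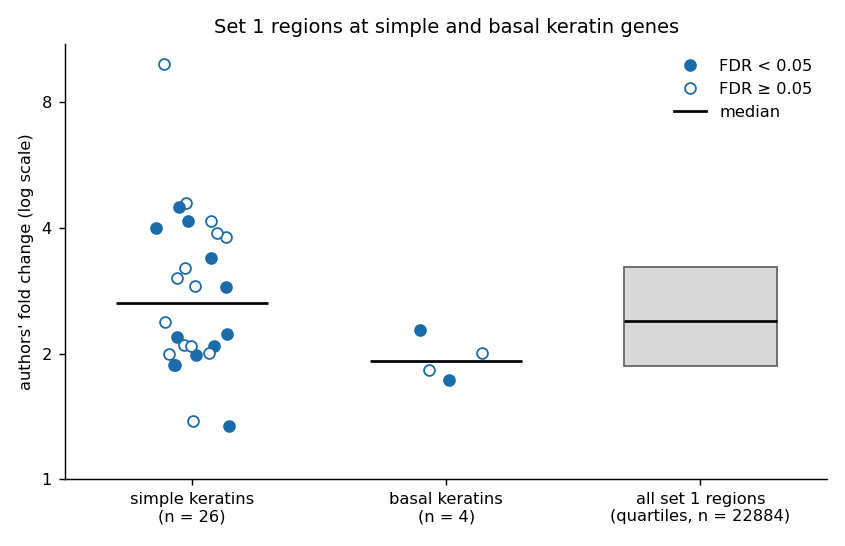
Points are the set 1 regions of simple (26) and basal (4) keratins by the authors' fold change (log scale), filled where the FDR is under 0.05, with the median as a line. The grey box gives the quartiles of all 22884 set 1 regions (1.87 to 3.23) with their median, 2.39; the highest simple point, 9.84, is an open one.

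Width went with passing, at the keratins as in the whole table. All 9 keratin regions of 500 bp or more passed, against 74.8% of such regions in the table. Of 10 regions of 300 to 400 bp 4 passed (38.1% in the table), and of 12 regions of 200 bp 1 did (4.87%). By the authors' deposited table the median fold change of the 200 bp keratin regions, 2.96, was nevertheless above that of the regions of 500 bp or more, 2.23. Narrow regions such as the one of 9.84-fold at *KRT8* and those of 4.59-fold and 3.88-fold inside *KRT7* therefore had large folds and a high FDR in the authors' deposited table. The part of width in the count of passing regions was not tested.

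Position relative to the genes also differed among the keratins. Of the 31 regions, 6 lay inside a keratin gene, 10 within 3000 bp of an end of one, and 21 had a keratin of the list as their nearest protein-coding gene. Among the 14 that passed, these counts were 3, 6 and 10. At *KRT5* every region was within 3000 bp of an end, at *KRT19* 3 of 6, at *KRT7* 3 of 12, at *KRT8* 1 of 8, and at *KRT18* and *KRT14* none. Strand was not in the gene table used here, so the 2 ends of a gene were treated alike. Close to the limit of the window, a set 2 region 50254 bp from *KRT8* (fold of 3.58 per the authors' deposited table, FDR = 0.0389) fell outside by 254 bp. A set 1 region 50210 bp from *KRT18* with 5.08 per the authors' deposited table (FDR = 0.149) fell outside by 210 bp. At *KRT14*, the set 1 region with 2.23 per the authors' deposited table (FDR = 3.95e-06), which is counted at *KRT19*, fell outside by 3990 bp. The farthest region counted at *KRT18* lay 1359 bp inside the limit.

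Along the type II cluster, listed regions were denser around the simple keratins near its ends than around *KRT5* inside it. There were 6.76 per 100000 bp in the merged window of *KRT8* and *KRT18* and 10.6 in that of *KRT7*, against 2.82 in that of *KRT5*. High counts were not particular to the simple keratins. Also inside the cluster, *KRT82* had 12 listed regions within 50000 bp and *KRT84* 10, of which 9 and 7 were in set 2. *KRT7* had 12, *KRT8* 8 and *KRT18* 6. From *KRT18* to *KRT80* the cluster spans 726.6 kb and held 40 listed regions, 29 in set 1 and 11 in set 2. Its middle part from *KRT78* to *KRT74*, 239.1 kb with genes such as *KRT4*, *KRT1* and *KRT2* of stratified epithelia, held only 4 listed regions. *KRT5* lies after this sparse part, 320.6 kb from *KRT8* and 271.5 kb from *KRT7*. Between *KRT6A*, a keratin of stressed and healing epidermis that neighbours *KRT5*, and *KRT84*, a hair keratin gene in humans, 8 regions lay in an unbroken row of set 2. This row runs from 27168901 to 27214000 and starts 66.6 kb from *KRT5*, outside its window. The authors' deposited table gave them fold changes of 1.75 to 5.70, and 2 passed: one at 27168901 to 27169400 (3.25, FDR = 0.00349) and one inside *KRT82*, also a hair keratin gene in humans (3.27, FDR = 0.0369). Rows of 8 or more set 2 regions occurred 77 times on the 29 chromosomes, among 3913 unbroken rows of set 2 of any length. With a window of 100000 bp *KRT5* reached 5 regions of this row, and *KRT14*, on chromosome 19, had 3 set 2 regions. In that window 8 of the 16 listed regions of basal keratins were in set 2, as were 5 of 40 for the simple keratins.

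**Figure D4:**
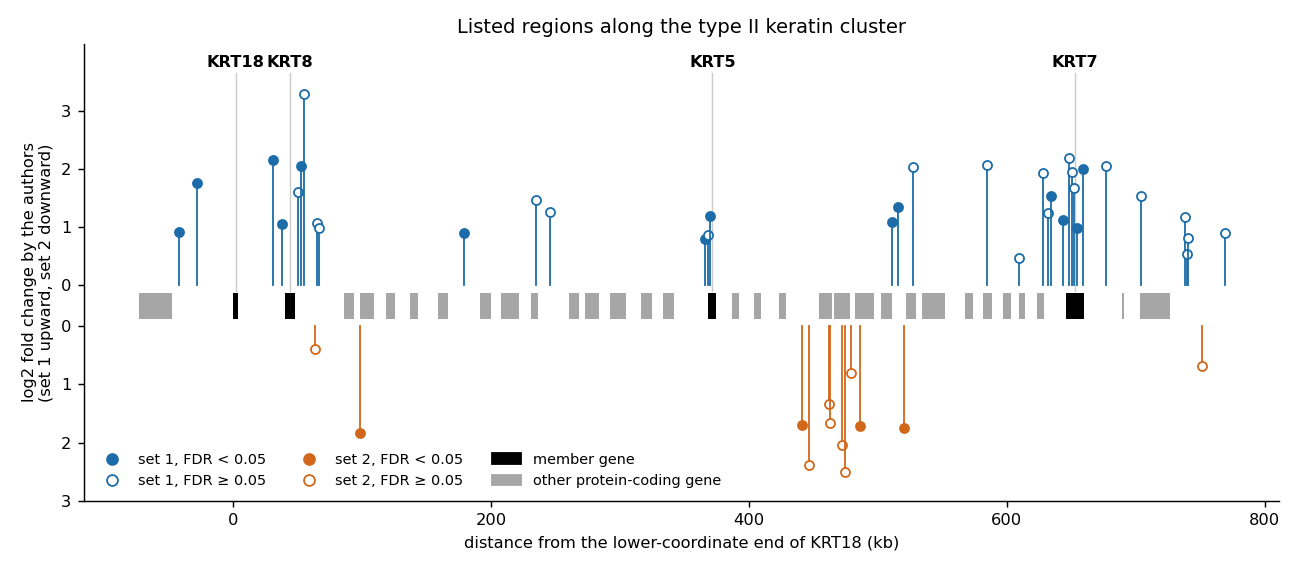
Listed regions along the type II keratin cluster are drawn by distance from the lower-coordinate end of *KRT18* (kb), with log2 of the authors' fold change upward for set 1 and downward for set 2, and filled points for an FDR under 0.05. Blocks are protein-coding genes, black for the members; set 1 regions crowd at *KRT18* and *KRT8* and at *KRT7*, and 8 set 2 regions stand in a row between *KRT6A* and *KRT84*.

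Other keratin genes shared many of these regions. Of 23 other type II keratins listed, 12 had a position and 10 of those a region under an FDR of 0.05 within 50000 bp (83.3%), where 51.4% of all protein-coding genes did. When the regions of the 6 placed members were left out, 8 of the 12 still had one. A passing set 2 region lay near 7 of the 12 (*KRT6A*, *KRT82*, *KRT78*, *KRT79*, *KRT84*, *KRT3* and *KRT4*, named after their values were seen), against 5.06% of all genes; neighbours among these 7 share regions. The rule for naming took those with the lowest p, *KRT6A*, *KRT74* and *KRT82*. The region of *KRT6A* and *KRT74*, the second a keratin of the inner root sheath of human hair, is the one inside *KRT5*, while that of *KRT82* is the first of the set 2 row. Of 24 other type I keratins, 16 had a position, 8 had any listed region (50%, against 79.7% of all genes) and 4 one that passed (25%). All 4, *KRT36*, *KRT9*, *KRT32* and *KRT35*, had a passing region only through those of *KRT19*, so that none was left without them.

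Genes that anchor keratin filaments to desmosomes and hemidesmosomes, the junctions to neighbouring cells and to the basement membrane, often had regions. Of 22 listed, 21 had a position, 20 had a listed region and 16 one under an FDR of 0.05 (76.2%, against 51.4% of all genes). The neighbours *DSG2* and *DSG3*, named after their values were seen, both count among the 16 through the same region. All 16 had a passing set 1 region. Of the 21 placed genes, 3 had a passing set 2 region, against 5.06% of all protein-coding genes. Over all protein-coding genes, 9802 had a passing region of either set and 965 a passing set 2 region. Lowest in p were the regions of *JUP*, which encodes plakoglobin (fold of 2.18 per the authors' deposited table, FDR = 2.50e-07), *PLEC*, the linker plectin (3.81, FDR = 4.31e-07), and *ITGA6*, an integrin chain of hemidesmosomes (1.76, FDR = 7.50e-06). The *JUP* region lies 4179 bp and that of *PLEC* 11338 bp from the gene, but that of *ITGA6* 49958 bp, near the limit. The 3 genes with a passing set 2 region, named after their values were seen, were *DSP*, which encodes desmoplakin and ties keratins to desmosomes, *DST*, a hemidesmosome linker, and *ITGB4*, the partner chain of *ITGA6*. At *DSP* 10 of 12 listed regions were in set 2, at *DST* 7 of 11 and at *ITGB4* 1 of 22. In the authors' deposited table the lowest p at *DSP* belonged to a set 2 region with a fold change of 4.11 (FDR = 0.0485).

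Of 15 genes for other intermediate filaments, all with a position, 9 had a passing region (60%, against 51.4% of all genes). They were led by *NEFL* (neurofilament light chain, fold of 3.58 per the authors' deposited table), *NES* (nestin, 1.65) and *LMNB2* (lamin B2, 2.86). *VIM*, which encodes vimentin, the filament of fibroblasts and other mesenchymal cells, was named after its values were seen. It had 3 listed set 1 regions and none that passed. Of 12 markers of fibroblasts, endothelial, immune and fat cells and pericytes, 6 had a passing region (50%, near the 51.4% of all genes). All 6 had a passing set 1 region. Of the 12 markers, 3 had a passing set 2 region, against 5.06% of all genes. The lowest p among them belonged to *ADIPOQ*, the fat cell hormone adiponectin (a set 2 region 24945 bp away, fold of 1.87 per the authors' deposited table, FDR = 8.13e-07), *VWF*, the endothelial von Willebrand factor (set 2, 9.63, FDR = 2.95e-05), and *PECAM1*, an endothelial adhesion protein (set 1, 1.65, FDR = 3.91e-05). Of the 7 listed regions of *ADIPOQ*, 6 were in set 1, as were 2 of 4 at *VWF* and 8 of 8 at *PECAM1*. The fibroblast markers, also named after their values were seen, differed among themselves. *COL1A1* had 7 listed regions, all in set 1, and 2 of them passed. *COL3A1* and *PDGFRA* had 1 and 3 listed regions and 0 that passed. Within 50000 bp the 6 placed keratins had no passing set 2 region, where 5.06% of all genes did, so a count of 0 among 6 does not set them apart. The part of other cell types in the keratin regions was not tested.

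**Figure D5:**
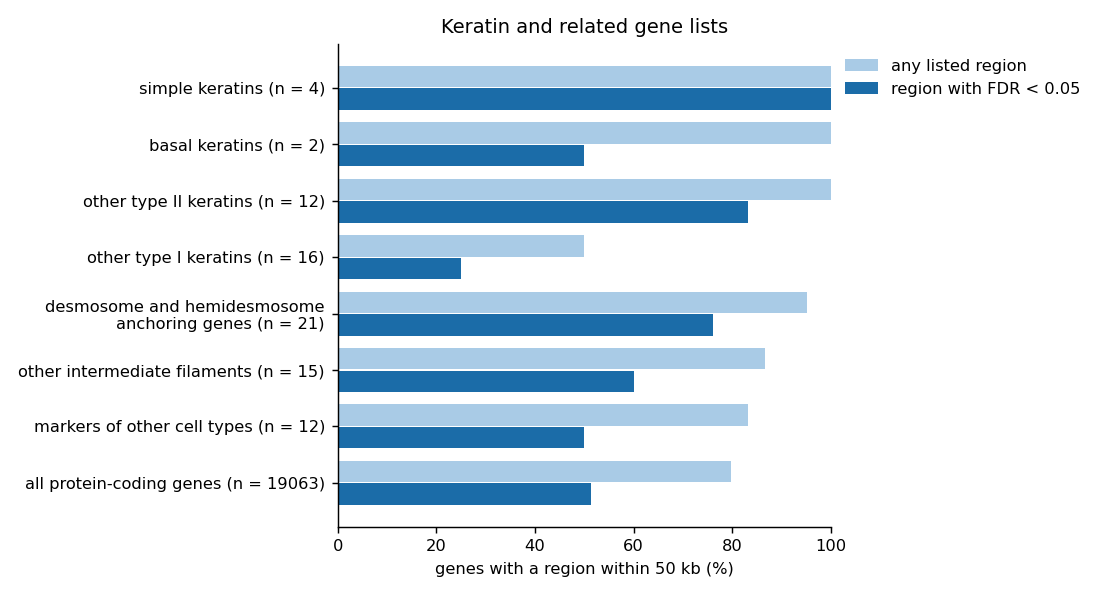
Bars give the percentage of the placed genes of each list with any listed region within 50000 bp (light) and with one at an FDR under 0.05 (dark). Simple keratins reach 100% and other type I keratins 25% for the dark bars, against 51.4% of all 19063 protein-coding genes; neighbouring keratins share regions, and no list was tested.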

How the data were processed

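ATAC-seq libraries of 3 lactation (replicates 1, 2 and 5) and 3 dry period samples (replicates 1, 2 and 3) were grouped from the labels. Bowtie2 2.2.5 and MACS2 are listed, without a role, per the submitters' processing notes. Not given in the sources used here are the caller of the differing regions, the genome build and any shift for the Tn5 cut. The authors deposited 1 table with a linear fold change (a ratio of one period over the other), a p-value and a Benjamini-Hochberg FDR (a q-value) per region. No listed p exceeds 0.001. The deposited signal value is a score equal to the fold change times 1 constant per set (32 and 20.4), and was not used. Positions, per the file headers start, end and length, hold another unit, bp; starts were shifted to count from 1.

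No value per library was given, so no fit, replicate block or test across libraries was made; the FDR threshold of 0.05 is applied to the authors' values. Genes came from a RefSeq table of assembly ARS1.2, whose coordinates are not printed; the match of positions was checked by the share of centres within 1000 bp of a gene end, which was highest for the own chromosome's genes on all 29. Distances run from region centre to gene. The assignment was checked on simulated data. Members, gene lists and the rule for named genes (all members, passing regions, the lowest p and nearest region of each, and the 3 lowest p of each other list) were chosen with earlier results of these data known. Alternatives were other windows, thresholds and assignments. Python 3.11.15, pandas 2.3.3 and matplotlib 3.10.9 were used. No sequences were used here.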

Additional observations from a re-analysis of the deposited data

How the results depend on the processing

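No paired analysis was possible because the table holds no value per library; leaving out single libraries was not run for the same reason. Listed regions of the keratins numbered 17 with a 10000 bp window and 50 with 100000 bp, against 31; 14 at simple keratins with the smaller window, against 28, and 3 and 16 at basal keratins, against 5. Counting only regions whose nearest protein-coding gene is a member left 18 at simple keratins, and leaving out *KRT7*, chosen after seeing the data, left 16 there and 19 in all. A fold of at least 2 left 3 listed and 1 passing region at basal keratins and 9 passing regions in all, against 14. Leaving out *KRT5*, also chosen after seeing the data, left 2 listed and 0 passing regions there. Passing regions at basal keratins numbered 6 with 100000 bp, against 2. With 100000 bp, passing regions were no longer all in set 1: *KRT5*, *KRT8* and *KRT18* each had 1 in set 2. In that window the 6 listed regions of *KRT19*, 3 of them passing, were also counted at *KRT14*. Set 2 regions at simple keratins, 2 in the report, were 0 with 10000 bp, 5 with 100000 bp, and 1 each with the nearest member, the nearest gene or a fold of at least 2. At basal keratins, 1 in the report, they were 0 with 10000 bp or the nearest gene and 8 with 100000 bp. The median set 1 fold ranged over the alternatives from 2.09 (without *KRT7*) to 3.12 at simple keratins, against 2.63, and from 1.83 to 2.15 at basal keratins, against 1.92; in the whole table it was 2.39. Keeping folds of at least 2 raises a median by construction, and gave 3.12 at simple and 2.15 at basal keratins. The simple median was above that of the whole table with a 10000 bp window (3.12) and below it without *KRT7* (2.09). Among passing regions it was 2.21, where that of the whole table was 2.32. Passing regions at simple keratins numbered 8 to 15 over all alternatives. In 10000 bp windows, 14 listed regions at simple and 3 at basal keratins were all in set 1. Depth is unknown.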
